A study of Homo sapiens with 6 samples.

Results

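p53 pathway targets were examined as a set of 33 named genes of the 56632 genes in the tables, taken by matching Ensembl gene identifiers to their symbols. Poly(A) RNA-seq was performed in HCT116, an established human colorectal cancer line, in 3 siMatrin3 libraries and 3 siCTRL libraries. siMatrin3 cells received a pool of small interfering RNAs (siRNAs) against Matrin3, a nuclear RNA-binding protein, and siCTRL cells a negative control siRNA, and both groups were transfected in 2 rounds with 72 hours between them and a further 48 hours to collection, as the labels give it. Both groups are the same single cell line, and neither the labels nor the methods name an agent that damages DNA for these libraries, so all values are levels without an added p53 stimulus. The methods call the replicates biological.

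p53 is a transcription factor that is held at a low level by MDM2 and MDM4 and accumulates after DNA damage and other stresses. It binds pairs of a short half-site in the DNA near its target genes and raises their transcription. The targets include MDM2 itself, which closes a negative feedback loop, and genes for growth arrest, DNA repair, cell death and metabolism. HCT116 cells are known to carry wild-type p53. Repression of cell cycle genes after p53 activation is known to run through the DREAM complex, a repressor of transcription.

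The half-site was searched in promoter windows to show what the promoters of these genes hold, with sequences from RefSeq on GRCh38.p14. The window ran from 250 bases before the annotated gene start to 50 bases after it, and 26 of the 33 genes had at least 1 window. The p53 half-site was defined as 10 bases, namely 3 purines, a C, 2 bases that are A or T, a G and 3 pyrimidines, a pattern that reads the same on both strands. An exact half-site was present in 7 of the 26 genes (26.9%, exact 95% binomial interval 11.6% to 47.8%), against 8.06% of 27305 genes with a window. A pair of half-sites at most 13 bases apart with at most 2 mismatches in all, none of them at the C or the G, was present in 5 of the 26 genes (19.2%, interval 6.55% to 39.4%), against 3.62% of genes with a window. A gene was counted if any of its windows matched, and genes can have several windows. Counted by window, the half-site was present in 16.7% of 42 windows of the set and 6.63% of all 35116 windows. The pair was present in 14.3% and 2.93% of these windows. A match describes the letters only, and known p53 sites also lie outside these windows.

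The 5 genes with a pair are shown first, because a pair is the form that p53 binds, each with 20 bases on either side and the half-sites in capitals, written 5′ to 3′ on the strand of the gene, with the position of the first capital counted from the gene start.
AEN, chr15:88621286-88621345, plus strand, position -34: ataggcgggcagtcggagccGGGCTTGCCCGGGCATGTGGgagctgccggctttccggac
DDB2, chr11:47214959-47215019, plus strand, position 5: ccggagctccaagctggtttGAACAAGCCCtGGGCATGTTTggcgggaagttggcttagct
FAS, chr10:88991289-88991348, plus strand, position -122: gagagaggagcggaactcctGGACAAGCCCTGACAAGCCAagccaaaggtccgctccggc
FDXR, chr17:74872976-74873045, minus strand, position -31: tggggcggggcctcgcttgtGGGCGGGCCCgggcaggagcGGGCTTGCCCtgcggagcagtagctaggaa
MDM2, chr12:68808903-68808962, plus strand, position -94 of the window at its internal promoter: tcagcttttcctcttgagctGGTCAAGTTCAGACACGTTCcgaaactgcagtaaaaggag
DDB2 held the one pair with 0 mismatches, with 1 base between its half-sites, and the other 4 pairs had 2 mismatches each.

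A single exact half-site without a pair was found in 3 further genes, shown in the same way because PLK2 is among the genes that changed.
PLK2, chr5:58460189-58460238, minus strand, position -132: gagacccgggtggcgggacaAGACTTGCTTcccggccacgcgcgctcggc
RPS27L, chr15:63157507-63157556, minus strand, position -59: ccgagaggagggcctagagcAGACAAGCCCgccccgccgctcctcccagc
SESN1, chr6:109009008-109009057, minus strand, position -49: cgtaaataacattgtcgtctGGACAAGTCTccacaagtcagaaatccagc
Of the 4 genes that passed the test between siMatrin3 and siCTRL, AEN and PLK2 therefore hold a match, the window of SERTAD1 holds none, and RRM2B had no window. The genes without a window were CMBL, GADD45A, PHLDA3, RRM2B, TNFRSF10A, TNFRSF10B and TP53INP1.

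MATR3 RNA was 95.17, 112.05 and 110.67 TPM (transcript abundance per length, scaled to the same total in each library) in the siMatrin3 libraries, against 186.39, 180.25 and 176.46 TPM in the siCTRL libraries. The edgeR log2 fold change was -0.93 (SE 0.0647, adjusted p = 7.67e-05), in the direction of the labels. The siMatrin3 libraries held 43119176 to 54185650 expected counts and the siCTRL libraries 40808173 to 52922637. Epithelial markers fixed for the line summed to 2691 to 2917 TPM in the siMatrin3 libraries and 2947 to 3097 TPM in the siCTRL libraries, with 6 of 8 at 1 TPM or more, CDX1 at or near 0 and VIL1 under 1 TPM. KRT18 (log2 fold change -0.15, adjusted p = 0.033, edgeR) was the 1 epithelial marker called, and it was lower. Of the 7 epithelial markers tested, 4 had log2 fold changes above 0 and 3 below. KRT8 was among the 3, at -0.11 without a call (adjusted p = 0.175, edgeR). The part of these shifts in the results below was not tested. Of 6 fibroblast markers 1, COL1A1, reached 1 TPM and 3 (COL1A2, DCN and LUM) were at 0 in all libraries, with sums of 15.0 to 19.1 TPM in siMatrin3 libraries and 13.7 to 16.2 TPM in siCTRL libraries. Immune markers summed to 1.49 to 1.95 TPM in siMatrin3 libraries and 2.14 to 2.86 TPM in siCTRL libraries, with PTPRC at 0, and endothelial markers to at most 0.26 TPM in any library. HLA-DRA, at 0.85 to 0.88 TPM in siMatrin3 libraries and 1.44 to 1.68 TPM in siCTRL libraries, was the 1 immune marker called. It was lower (log2 fold change -0.95, adjusted p = 0.0138, edgeR), and its part in the results was not tested.

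Most p53 target genes were expressed at nearly the same level in siMatrin3 and siCTRL cells. AEN, SERTAD1 and RRM2B rose by 17.3%, 17.2% and 11.8%, PLK2 fell by 16.3%, and 28 genes did not pass the test (edgeR quasi-likelihood, Benjamini-Hochberg adjusted p under 0.05 over 16786 genes). The remaining gene, EDA2R, had too few counts to be tested. The 3 higher and 1 lower calls among the 32 genes tested, 12.5%, stood beside 11.0% of all genes tested, with 5.05% of all genes called higher and 5.97% called lower. The share among p53 targets was therefore near that of the transcriptome.

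**Figure D1:**
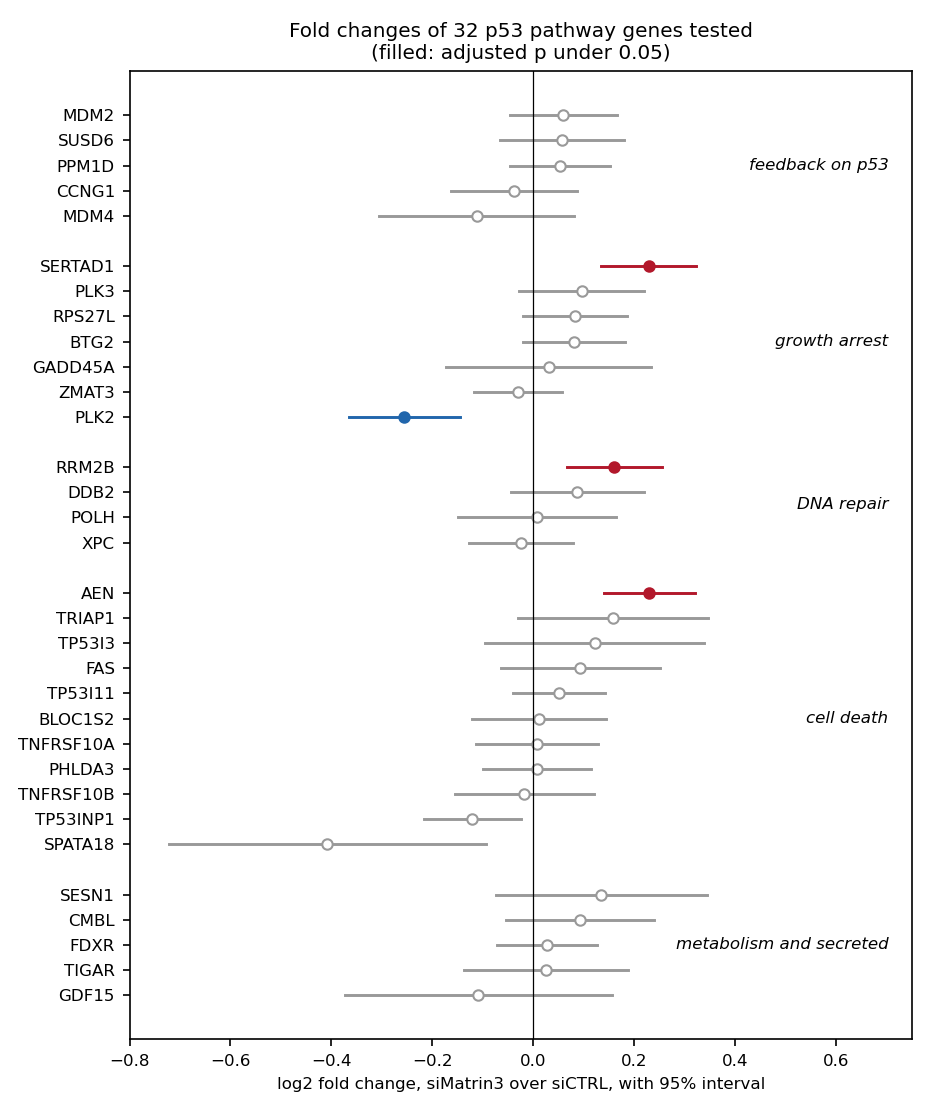
log2 fold change of siMatrin3 over siCTRL (x axis, with 95% intervals) for the 32 genes tested, grouped by role, with filled points for adjusted p under 0.05. AEN and SERTAD1 stand at 0.23 and RRM2B at 0.16, PLK2 stands at -0.26, and the other genes have open points.

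The log2 fold changes of the 32 genes lay between -0.41 and 0.23 with a median of 0.04, beside a median of -0.00106 over all genes tested, and 23 were above and 9 below 0. Their median absolute log2 fold change was 0.0813, beside 0.107 over all genes tested. The 95% interval of the fold change lay within 1.3-fold in either direction for 31 of the 32 genes, SPATA18 being the exception. It lay within 1.2-fold for 23 of them. Over all 16786 genes tested, these counts were 10285 and 7735. Among the 28 genes that were not called, 22 had an interval within 1.2-fold, and the others were SPATA18, GDF15, MDM4, SESN1, TP53I3 and TRIAP1. Over all genes tested, 7531 of the 14937 not called had such an interval. An unadjusted p under 0.05 (edgeR) was found for 6 of the 32 genes, namely the 4 called and SPATA18 and TP53INP1. Over all 16786 genes tested it was found for 4364. TPM values of the groups did not overlap for 3 genes higher in siMatrin3 (AEN, SERTAD1 and RRM2B) and 3 genes lower (PLK2, SPATA18 and TP53INP1), whereas 25.1% of all genes tested had groups that did not overlap. Bulk RNA cannot tell apart fewer cells with a transcript and less of it per cell.

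Levels in the cells spanned a wide range. GDF15, a secreted stress cytokine, had the highest level, with 584.51, 421.60 and 450.94 TPM in siMatrin3 libraries and 602.82, 529.94 and 460.98 TPM in siCTRL libraries. The death receptor TNFRSF10B followed, with 153.83, 135.37 and 126.56 TPM in siMatrin3 libraries and 139.76, 150.48 and 136.55 TPM in siCTRL libraries. GADD45A, a stress sensor that binds PCNA, had 124.15, 98.41 and 100.06 TPM in siMatrin3 libraries and 115.37, 105.17 and 97.22 TPM in siCTRL libraries. Groups overlapped for all 3 genes, and replicate 1 was the highest library of each group for GDF15 and for GADD45A. At the low end, SUSD6 had 4.03, 4.26 and 4.48 TPM in siMatrin3 libraries and 4.30, 4.46 and 3.96 TPM in siCTRL libraries. SPATA18 stayed below 1.5 TPM in every library. EDA2R, a receptor of the tumor necrosis factor family that binds ectodysplasin, had 1 to 4 expected counts and 0.01 to 0.03 TPM per library, too little for a comparison.

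**Figure D2:**
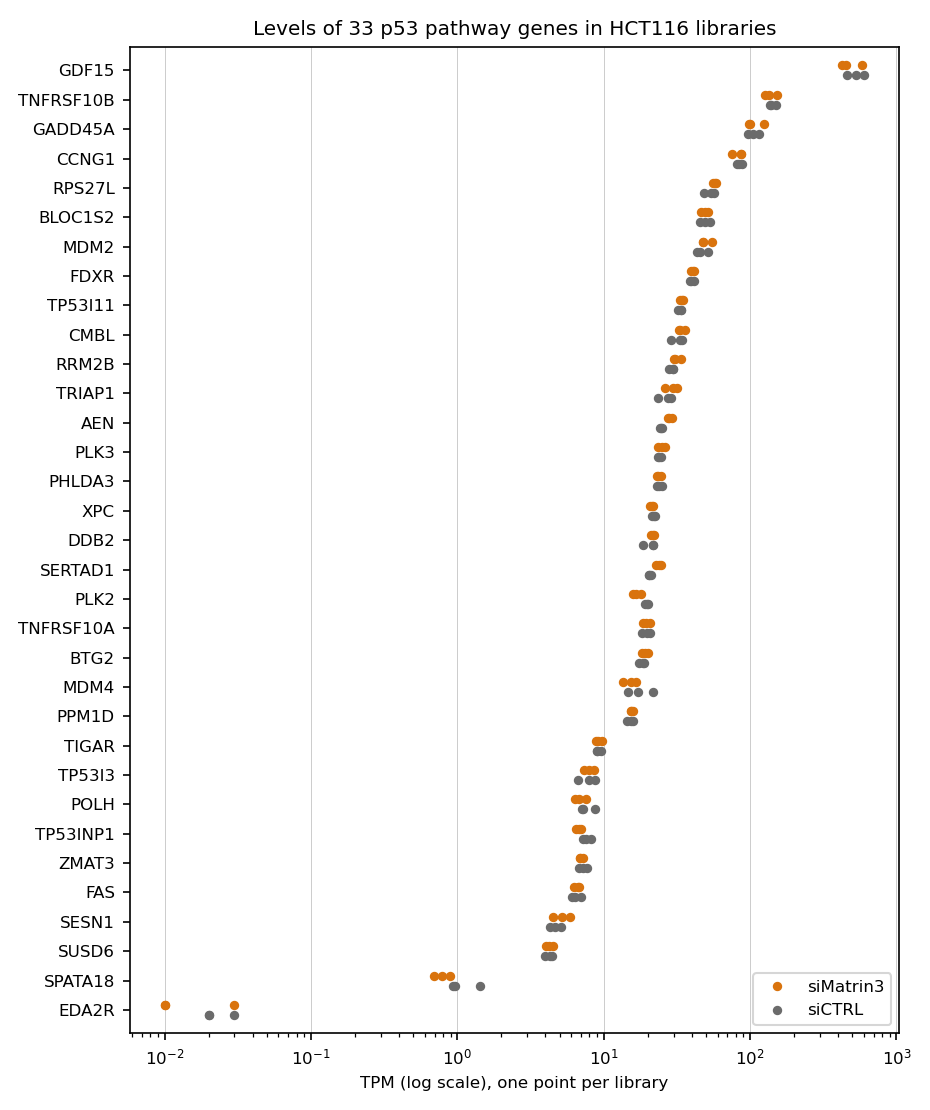
TPM of the 33 genes (log axis), with a point per library and siMatrin3 above siCTRL, ordered by siCTRL level. GDF15 lies above 400 TPM and EDA2R at or below 0.03 TPM, and the groups lie on each other for most genes.

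The feedback arm, genes that act on p53 or its regulators, listed together with SUSD6, showed 0 genes higher and 0 lower of 5. MDM2, the ubiquitin ligase that marks p53 for degradation and is among its most sensitive targets, had 47.81, 54.54 and 47.51 TPM in siMatrin3 libraries and 43.11, 51.32 and 45.79 TPM in siCTRL libraries. Its log2 fold change was 0.06 (95% interval -0.05 to 0.16, adjusted p = 0.477, edgeR), and replicate 2 was the highest library in each group. PPM1D, a phosphatase that removes activating phosphates in the p53 pathway, had 15.26, 15.89 and 15.32 TPM in siMatrin3 libraries and 15.27, 15.89 and 14.32 TPM in siCTRL libraries. The groups overlapped for both genes. CCNG1, or cyclin G1, which brings a phosphatase to MDM2, had 74.94, 87.18 and 86.65 TPM in siMatrin3 libraries and 84.23, 81.02 and 87.72 TPM in siCTRL libraries. MDM4, a relative of MDM2 that binds and inhibits p53, had 15.46, 16.61 and 13.60 TPM in siMatrin3 libraries and 14.61, 21.85 and 17.27 TPM in siCTRL libraries, with a log2 fold change of -0.11 (95% interval -0.30 to 0.08). The siCTRL library at 21.85 TPM stood above the other 5 for MDM4, and its mean transcript length for that gene, 6673 bases, was below the 7229 to 7839 bases of the others. SUSD6, a transmembrane protein, had a log2 fold change of 0.06 (95% interval -0.07 to 0.18).

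Of 7 genes of growth arrest, 1 rose and 1 fell. SERTAD1, which binds CDK4 and acts as a cofactor of E2F, had 23.72, 22.76 and 24.53 TPM in siMatrin3 libraries and 20.30, 20.25 and 20.94 TPM in siCTRL libraries. Each siMatrin3 library lay above each siCTRL library. The means were 23.7 ± 0.886 TPM in siMatrin3 cells and 20.5 ± 0.385 TPM in siCTRL cells (SD, n = 3 each), with an edgeR log2 fold change of 0.23 (SE 0.0427, adjusted p = 0.0089). PLK2, a polo-like kinase of centriole duplication and stress responses, went the other way with 15.95, 17.96 and 16.59 TPM in siMatrin3 libraries and 19.24, 20.15 and 19.66 TPM in siCTRL libraries. The highest siMatrin3 library for PLK2 was still under the lowest siCTRL library. Its means were 16.8 ± 1.03 TPM in siMatrin3 cells and 19.7 ± 0.455 TPM in siCTRL cells (SD, n = 3 each), with a log2 fold change of -0.26 (SE 0.0496, adjusted p = 0.0106, edgeR). The related kinase PLK3 did not pass the test and had a log2 fold change of 0.10 (95% interval -0.03 to 0.22). The PLK2 call was lost without siCTRL replicate 3 (adjusted p = 0.0556, edgeR), and with a transcript length offset (adjusted p = 0.0591), with log2 fold changes of -0.23 and -0.21. The other 4 genes of this group were the antiproliferative BTG2, the ribosomal protein paralog RPS27L, GADD45A and the RNA-binding zinc finger protein ZMAT3. Their log2 fold changes lay between -0.03 and 0.08 with adjusted p of at least 0.301 (edgeR).

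Of 4 genes of DNA repair, 1 rose. RRM2B, the p53-inducible small subunit of ribonucleotide reductase, which supplies deoxynucleotides for repair, had 33.53, 30.90 and 30.45 TPM in siMatrin3 libraries and 29.68, 27.88 and 29.95 TPM in siCTRL libraries. The groups did not overlap, but the lowest siMatrin3 library was only slightly above the highest siCTRL library. The means were 31.6 ± 1.66 TPM in siMatrin3 cells and 29.2 ± 1.13 TPM in siCTRL cells (SD, n = 3 each), with a log2 fold change of 0.16 (SE 0.0425, adjusted p = 0.037, edgeR). This call was the least stable of the 4. It was lost without siCTRL replicate 2 (adjusted p = 0.078) or 3 (0.117) and without siMatrin3 replicate 1 (0.0851), 2 (0.0833) or 3 (0.0922), all by edgeR. With a transcript length offset it was lost too (adjusted p = 0.222, edgeR), at a log2 fold change of 0.13. DDB2 and XPC, which recognise damage in nucleotide excision repair, and POLH, the polymerase that copies past ultraviolet damage, had log2 fold changes of 0.09, -0.02 and 0.01. DDB2 holds the pair of half-sites with 0 mismatches shown above and had 20.92, 22.08 and 21.69 TPM in siMatrin3 libraries and 18.51, 21.86 and 21.70 TPM in siCTRL libraries, which overlapped.

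Of 12 genes of cell death and its control, 11 were tested and 1 rose. AEN, an exonuclease that takes part in p53-driven apoptosis, had 27.52, 29.27 and 27.89 TPM in siMatrin3 libraries and 24.40, 24.92 and 24.48 TPM in siCTRL libraries. The groups did not overlap, and the siCTRL libraries lay within a narrow band. The means were 28.2 ± 0.922 TPM in siMatrin3 cells and 24.6 ± 0.28 TPM in siCTRL cells (SD, n = 3 each), with a log2 fold change of 0.23 (SE 0.0407, adjusted p = 0.00703, edgeR). Ranked from the largest rise to the largest fall, AEN stood at rank 1432 and SERTAD1 at rank 1445 of the 16786 genes tested.

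**Figure D3:**
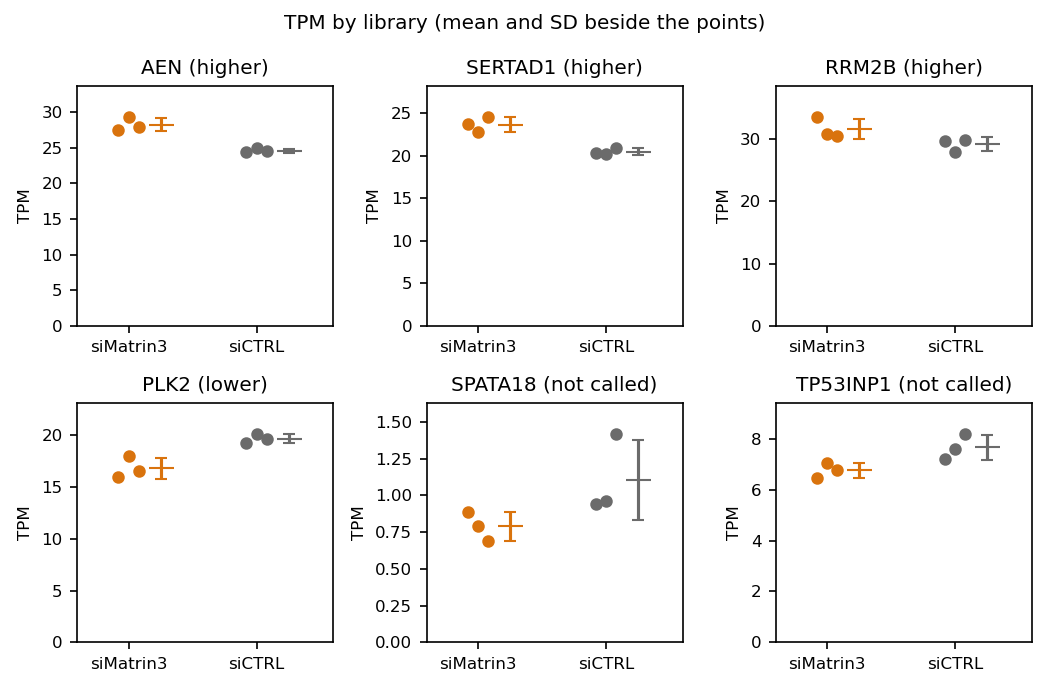
TPM by library (points, replicates 1 to 3 from left to right) with mean and SD for the 6 genes whose groups did not overlap, siMatrin3 left and siCTRL right, axes starting at 0. AEN, SERTAD1 and RRM2B are higher in siMatrin3 and PLK2 is lower, and SPATA18 and TP53INP1 lie lower without passing the test.

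SPATA18, a protein of mitochondrial quality control, had 0.89, 0.79 and 0.69 TPM in siMatrin3 libraries and 0.94, 0.96 and 1.42 TPM in siCTRL libraries. The groups did not overlap, at 76 to 103 expected counts in siMatrin3 libraries and 108 to 122 in siCTRL libraries, and the log2 fold change of -0.41 (95% interval -0.72 to -0.09) did not pass the test (adjusted p = 0.0945, edgeR). TP53INP1, which acts in autophagy and apoptosis, had 6.46, 7.05 and 6.76 TPM in siMatrin3 libraries and 7.19, 7.59 and 8.19 TPM in siCTRL libraries. Its log2 fold change was -0.12 (95% interval -0.22 to -0.02, adjusted p = 0.107, edgeR), and again the groups did not overlap without a call. The death receptors FAS, TNFRSF10A and TNFRSF10B had log2 fold changes of 0.09, 0.01 and -0.02, and their groups overlapped. TRIAP1, a small inhibitor of apoptosis, had a log2 fold change of 0.16 like that of RRM2B, but with a wider interval of -0.03 to 0.35 (adjusted p = 0.278, edgeR). The remaining genes of this role, the AKT inhibitor PHLDA3, the quinone oxidoreductase TP53I3, TP53I11 and the lysosome-positioning subunit BLOC1S2, had log2 fold changes between 0.01 and 0.12.

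Of 5 genes of metabolism and secreted signals, 0 were called. SESN1, a sestrin that restrains mTORC1, had a log2 fold change of 0.13 (95% interval -0.07 to 0.34). TIGAR, a phosphatase that lowers glycolytic flux, FDXR, the mitochondrial ferredoxin reductase, and CMBL, a hydrolase, had log2 fold changes of 0.03, 0.03 and 0.09, and the groups overlapped for each. GDF15 had a log2 fold change of -0.11 (95% interval -0.37 to 0.15), with a coefficient of variation of 17.9% in siMatrin3 libraries and 13.4% in siCTRL libraries. Among GDF15, TNFRSF10B and GADD45A, the genes of the set above 100 TPM, GDF15 varied most between libraries in both groups.

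The mean log2 level over the 32 genes, set to the siCTRL mean, was 0.024, 0.0373 and 0.0118 in the siMatrin3 libraries and -0.0139, 0.00743 and 0.00645 in the siCTRL libraries. Over all genes tested the same measure was -0.0372, -0.0261 and -0.0299 in the siMatrin3 libraries and -0.0117, 0.015 and -0.00327 in the siCTRL libraries. Both sets of shifts were below 0.04 in size on the log2 scale. In the siMatrin3 libraries they were above 0 for the 32 genes and below 0 over all genes tested.

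Other genes of the pathway were counted from lists drawn up for this comparison. Calls in these lists, and in the DREAM list below, come from the main test only and were not repeated under the alternative settings. Of 28 regulators of p53, 2 rose and 0 fell with a median log2 fold change of 0.02, so that 7.14% were called, beside 11.0% of all genes tested. USP7, a deubiquitinase of p53 and MDM2, was among them with a log2 fold change of 0.14 (adjusted p = 0.0485, edgeR). Of 52 further p53 targets, 3 rose and 4 fell with a median of 0.03, so that 13.5% were called, near the 11.0% of all genes tested, and 45 did not pass the test. PVT1, a long non-coding RNA, and PTP4A1, a phosphatase, rose with log2 fold changes of 0.27 and 0.16 (adjusted p = 0.00487 and 0.0218, edgeR), although PTP4A1 overlapped between groups on the TPM scale. DUSP4, a MAP kinase phosphatase, PERP, a desmosomal effector of p53, and BBC3, the apoptosis activator PUMA, fell with log2 fold changes of -0.34, -0.26 and -0.18 (adjusted p = 0.00293, 0.0256 and 0.0116, edgeR). BBC3 had 42.94, 41.84 and 43.39 TPM in siMatrin3 libraries and 49.38, 49.95 and 48.92 TPM in siCTRL libraries.

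Of 30 cell cycle genes known to be repressed through DREAM, 9 rose and 0 fell in siMatrin3 cells with a median log2 fold change of 0.15, where 5.05% of all genes tested were called higher. MCM5, a subunit of the replicative helicase, had 77.63, 78.89 and 79.47 TPM in siMatrin3 libraries and 61.96, 66.37 and 66.86 TPM in siCTRL libraries (log2 fold change 0.30, SE 0.0419, adjusted p = 0.00228, edgeR). BUB1B and BUB1, kinases of the spindle checkpoint, had log2 fold changes of 0.24 and 0.20 (adjusted p = 0.00485 and 0.02, edgeR). By library, the mean log2 level of this list, set to the siCTRL mean, was 0.063, 0.173 and 0.168 in the siMatrin3 libraries and -0.0314, 0.0208 and 0.0107 in the siCTRL libraries. siMatrin3 replicate 1 was thus nearest to the siCTRL libraries.

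**Figure D4:**
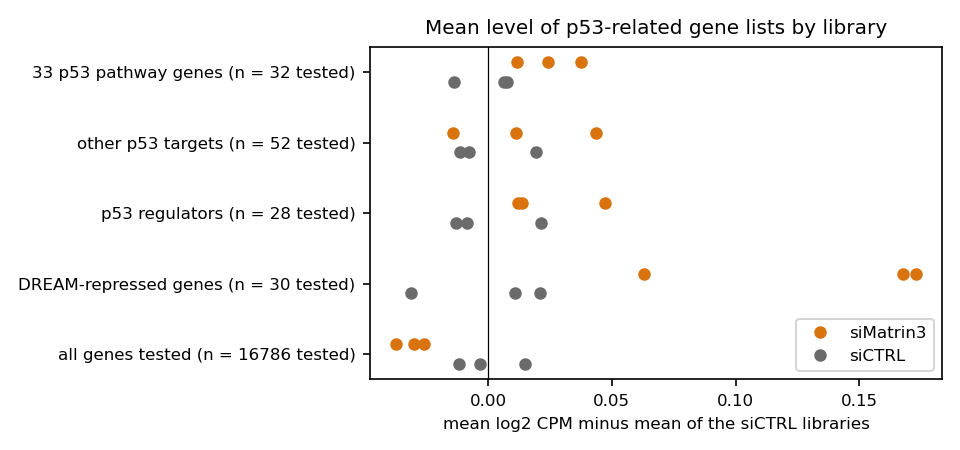
Mean log2 CPM (counts scaled to library size) of each gene list minus the mean of the siCTRL libraries, with a point per library and siMatrin3 above siCTRL. The DREAM-repressed list lies at 0.063 to 0.173 in siMatrin3 libraries, and the 32 p53 pathway genes tested lie at 0.0118 to 0.0373.

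A change in the mix of transcripts of a gene was looked for through its mean transcript length, which RSEM weights by estimated abundance, because Matrin3 is a splicing regulator. Of 31 genes that could be tested, 0 were called by limma, beside 0.00823% of 12148 genes tested, and 1 had an unadjusted p under 0.05, as did 768 of all genes tested. That gene was POLH, with 3483, 3523 and 3540 bases in siMatrin3 libraries and 3280, 3037 and 3390 bases in siCTRL libraries. Its log2 length ratio was 0.12 (SE 0.0435, adjusted p = 0.769, limma), and the groups did not overlap. For AEN the lengths averaged 3063 bases in siMatrin3 libraries and 3042 bases in siCTRL libraries. SERTAD1 has a single annotated transcript and EDA2R too few counts, so neither was tested. TIGAR had 1361 bases in every library, so its test could not have given a call. Inclusion of single exons was not tested, and a mean length can stay nearly the same when a short exon changes. Exons of other genes lie on the same strand as exons of FAS, MDM2, PHLDA3 and TIGAR in GENCODE 44, and the share of reads the authors' estimates gave to each of these 4 genes is uncertain. Exons of genes on the opposite strand overlap those of MDM2, FAS, PLK3, POLH, SESN1, TIGAR, TNFRSF10A, TNFRSF10B, TP53I11, TP53I3, TP53INP1 and XPC, and whether the estimates used strand is not given in the sources used here. AEN, SERTAD1, RRM2B and PLK2 have no such overlap.

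The calls were also compared over other ways of processing. AEN and SERTAD1 passed the test in each leave-one-out fit, with other scalings and with DESeq2, and did not pass in limma on log2(TPM + 1) or log2(TPM + 0.1). None of the 4 genes changed direction, and none of the 28 other genes tested was called in any of the 17 alternatives.

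**Figure D5:**
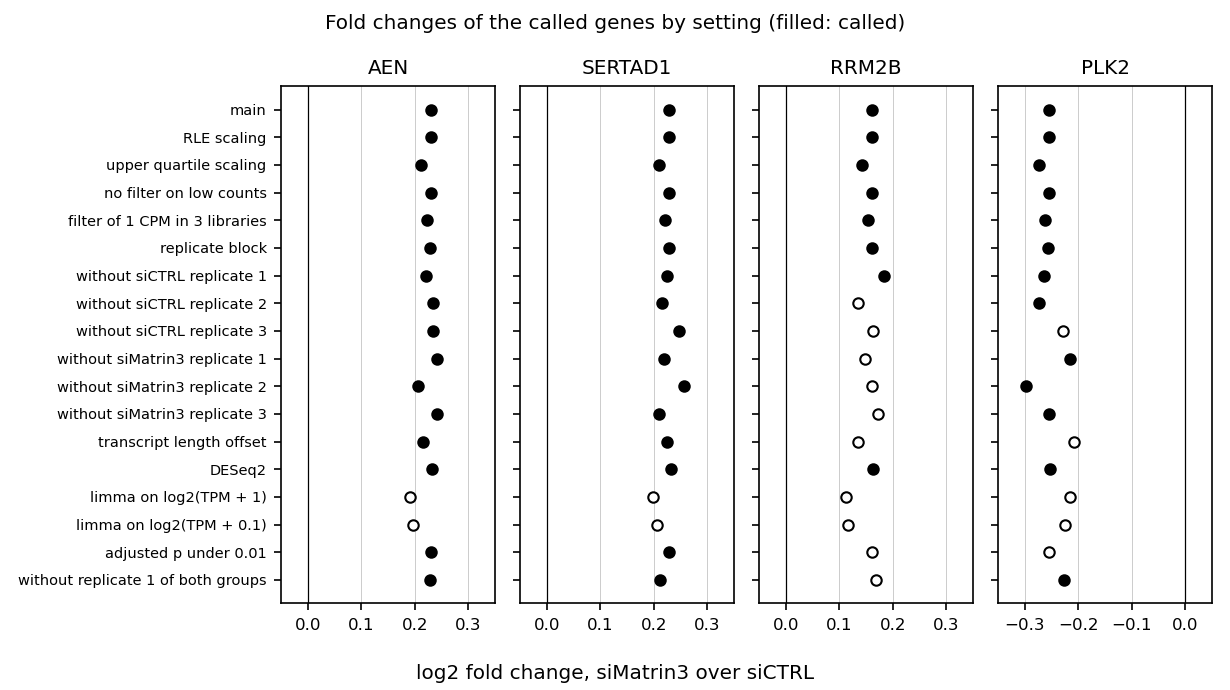
log2 fold change of siMatrin3 over siCTRL (x axis) of the 4 called genes under the main and alternative settings (rows), filled where called. AEN and SERTAD1 are open in the 2 limma settings only, and RRM2B and PLK2 are open in more of them.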

How the data were processed

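RNA selected for poly(A) tails came from 3 siMatrin3 and 3 siCTRL libraries of HCT116 cells, which the methods call biological triplicates. Groups follow the labels, and the methods word the time of collection in another way. The kit was stranded and reads were paired. Tools in the submitters' processing notes are cutadapt, STAR 2.5.1 and RSEM with the hg19 build, while a different STAR version stands in the methods. One table per library was deposited. Its expected counts are RSEM estimates in which the authors shared ambiguous reads out among transcripts and genes. Its TPM values were set by the authors to one total per library. Its FPKM values, divided by the authors by length and depth, were left aside. The length of each gene in the deposited tables is an average over its transcripts, weighted by abundance.

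Here, the rounded expected counts passed filterByExpr, received TMM factors and entered a quasi-likelihood test (edgeR 4.0.16, R 4.3.3, two-sided, no covariate) of 16786 genes, with calls at an adjusted p under 0.05. For transcript length, limma 3.58.1 was used where a gene had at least 2 transcripts and no library fell under 50 expected counts. The edgeR test at its main settings and the limma test were tried on simulated data, and the other steps were not. Gene names were taken from GENCODE 44, on GRCh38, and matched 88.3% of genes, and promoters from RefSeq. Depth of 40808173 to 54185650 counts limits mainly SPATA18 and EDA2R. The alternatives, among them DESeq2 1.42.0, are given in the closing section.

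The 33 genes and the other lists were chosen with earlier results of these data known. All 33 are accounted for, with values in each library for genes past the threshold, genes whose groups did not overlap, the feedback arm and the 3 highest and 3 lowest levels. Library values of DDB2 and POLH were added after their values were seen. From each other list, at most 3 genes per direction with the smallest p are named, and a few that qualify are left out of this report.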

Additional observations from a re-analysis of the deposited data

How the results depend on the processing

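Leaving out each library in turn gave 2 to 3 genes of the set called higher and 0 to 1 called lower, against 3 and 1 with all libraries. The count of genes called lower was 0 without siCTRL replicate 3, with the transcript length offset, with an adjusted p under 0.01, and in limma on log2(TPM + 1) and log2(TPM + 0.1), and both limma fits also called 0 higher. In limma on log2(TPM + 1) all 4 calls were lost, at adjusted p of up to 0.35. RRM2B was not called in 9 and PLK2 in 4 of the 16 alternatives at the same threshold, AEN and SERTAD1 in 2 each. RRM2B was also lost without replicate 1 of both groups (adjusted p = 0.0523, edgeR), an alternative chosen after seeing the data. The cause of these losses was not tested. Over all genes, 847 were called higher and 1002 lower. These counts were 301 and 469 without siCTRL replicate 3, 409 and 605 without siMatrin3 replicate 2, 292 and 467 without siMatrin3 replicate 3, 290 and 416 with the length offset, 81 and 242 in limma on log2(TPM + 1), 51 and 184 on log2(TPM + 0.1) and 207 and 354 at an adjusted p under 0.01. Without replicate 1 of both groups they were 542 and 674. With the group mean of each gene taken off its log2 CPM, same-numbered libraries correlated at 0.177, 0.0896 and 7.21e-05. Differently numbered libraries correlated at -0.145 to 0.0641. Replicates 1 and 2 thus correlated best with their own number, and replicate 3 did not. The main test did not pair libraries by number. With the replicate number as a block, 3 genes of the set were called higher and 1 lower, and 1338 and 1378 of all genes. No scaling moved the median of all genes by over 0.1. The length test called 0 genes of the set in every alternative.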
